A study of Mus with 12 samples.

Results

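Peripheral blood of mice that received subcutaneous mesenchymal stem cells during a hapten-induced dermatitis was compared with blood of mice that received neither the hapten nor cells, to describe which transcripts still differed from the control level at the end of the experiment. The comparison used 3 libraries labelled scMSC and 3 labelled Solvent, of 12 blood libraries in the series. Genes with an FPKM (fragments counted, scaled to transcript length and to library size) of at least 1 in at least 3 of these 6 libraries were taken, which left 4441 of the 25247 genes in the deposited table. All animals were BALB/c mice, described in the study's methods as females bought at 6 weeks of age, and blood was taken on day 30. Solvent mice were painted on the shaved back with the acetone and olive oil vehicle only. DNCB mice were sensitised with 1% 2,4-dinitrochlorobenzene (DNCB), a contact hapten, and then challenged repeatedly with 0.5% DNCB. The scMSC mice had the same DNCB schedule and received human umbilical cord mesenchymal stem cells (MSC) under the skin, at 2000000 cells per dose. The scMSC and Solvent groups therefore differ in both DNCB and MSC, so the DNCB libraries are set beside them below, and no group that received MSC without DNCB is compared here. The labels number 3 libraries in each group and do not state that each came from a separate mouse, so p-values describe the spread between these libraries, which may be partly technical.

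Whole blood RNA is a mixture. Red cells and reticulocytes carry nearly all of the haemoglobin mRNA, neutrophils store antimicrobial proteins in granules whose mRNAs are made mainly while the cells mature in the marrow, B cells carry surface immunoglobulin and present antigen on MHC class II, and platelets hold mRNA inherited from megakaryocytes. In contact hypersensitivity, blood neutrophils are mobilised from the marrow and lymphocytes traffic between blood, lymph nodes and the inflamed skin. In bulk blood, fewer cells of a type and less RNA per cell cannot be told apart.

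Total deposited counts per library ranged from 61559499 to 65139421 in Solvent and from 52179764 to 59670743 in scMSC. The counts outside the haemoglobin genes ranged from 8922035 to 12750895 in Solvent and from 7877293 to 8479300 in scMSC. Every scMSC library was thus below every Solvent library in both measures of depth. The haemoglobin genes took 92.3% to 94.5% of the summed FPKM in Solvent and 93.9% to 94.6% in scMSC, a difference of 0.575 percentage points (exact two-sided permutation test, p = 0.7, n = 3 per group, where 0.1 is the smallest p possible). The number of genes at an FPKM of 1 or more was 6371, 4605 and 4346 for Solvent replicates 1 to 3 and 3900, 3183 and 3742 for the scMSC replicates, so Solvent replicate 1 stood apart and every scMSC library detected fewer genes than every Solvent library. The skin markers were at or near 0 in blood. None of the 12 keratinocyte genes in the table passed the FPKM filter, their sum was between 0.468 and 2.28 FPKM over the 6 libraries, and Lor was at 0 in all of them.

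Of the 4441 genes, 19 were higher and 23 lower in scMSC than in Solvent at an adjusted p under 0.05 and a fold change over 2 (edgeR quasi-likelihood test over all 12 libraries, Benjamini-Hochberg adjustment), which is 0.428% and 0.518% of the genes tested. An unadjusted p under 0.05 was reached by 1440 genes. The 42 genes fell into recognisable groups. Neutrophil granule genes, a set of genes that includes the erythroid and megakaryocyte regulator Gata1, and the platelet receptor gene Gp1ba were higher, whereas B cell, MHC class II and immunoglobulin M and D genes were lower. For none of the 42 did the 3 scMSC libraries overlap the 3 Solvent libraries, while over all tested genes 323 (7.27%) had every scMSC library above every Solvent library and 1905 (42.9%) had every scMSC library below. The filter fixed this separation for 4 higher genes that passed through scMSC libraries alone and 4 lower genes that passed through Solvent libraries alone. All 42 were selected by a test on the same libraries, so their separation is a description and adds no support.

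**Figure D1:**
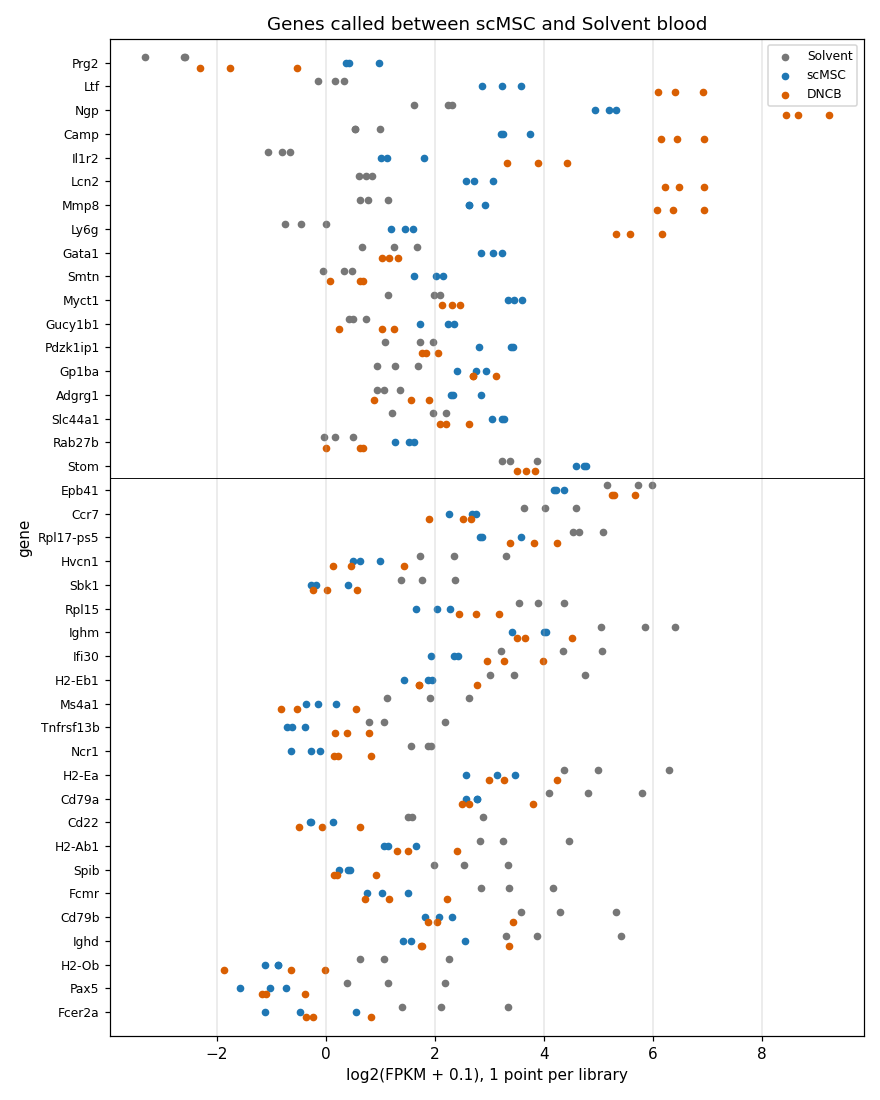
Genes called between scMSC and Solvent (rows; 41 of the 42), with log2(FPKM + 0.1) on the x axis and 1 point per library for Solvent (grey), scMSC (blue) and DNCB (orange). Genes above the line were higher in scMSC and genes below it lower, and in each row the blue and grey points are separate.

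The median log2 fold change over all tested genes was -0.60, meaning that on the scale of total counts most non-haemoglobin transcripts were lower in scMSC. With TMM scaling, which centres on the bulk of genes, this median was -0.04, a shift of 0.56, and 352 genes (7.93%) were higher and 65 (1.46%) lower. When the 6 libraries were fitted alone on total counts, with no spread borrowed from the other groups, 105 genes (2.36%) were higher and 901 (20.3%) lower. Of the 42 genes, 41 were called in the same direction in both of these fits. The exception was Epb41, whose log2 change with TMM was -0.87 (adjusted p = 0.172). Calls in the 12-library fit were fragile to single libraries. Without Solvent replicate 1, Solvent replicate 2, or scMSC replicate 1, 2 or 3, between 4 and 7 of the 42 were still called, and 27 without Solvent replicate 3, whereas in the 6-library fit 40 to 42 of them were still called without any 1 library. The 380 genes that passed the FPKM filter through Solvent libraries alone, and the 34 that passed through scMSC libraries alone, had to differ to pass, so counts over a list are given below as a description.

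**Figure D2:**
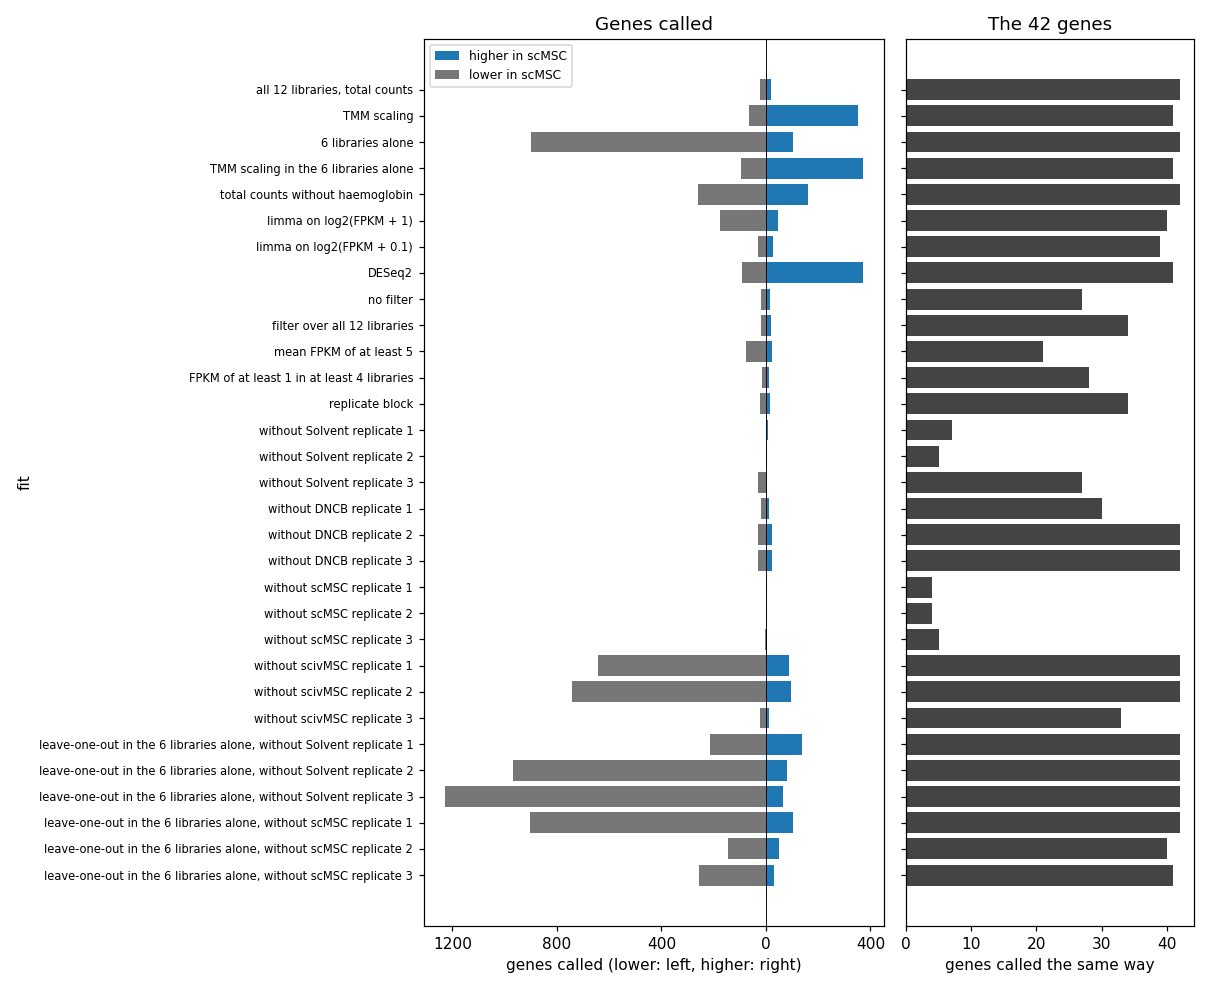
Left, the number of genes called lower (grey, to the left of 0) and higher (blue, to the right) in scMSC than in Solvent, 1 row per fit; right, how many of the 42 genes were called in the same direction in that fit. Without 1 Solvent or scMSC library the 12-library fit kept 4 to 27 of the 42, and the fit of the 6 libraries alone kept 40 to 42.

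Neutrophil granule and secreted protein genes were the clearest group that remained above the control level. Ltf, which encodes the iron-binding granule protein lactoferrin (chromosome 9, 111019271 to 111042767), had an FPKM of 0.809, 1.03 and 1.16 in Solvent and 7.22, 9.30 and 11.9 in scMSC. All 3 scMSC libraries were several times above the highest Solvent library, and the log2 fold change was 3.22 ± 0.39 (SE, adjusted p = 0.00042). Ngp, the neutrophilic granule protein gene and a neighbour of Ltf on chromosome 9 (110419747 to 110423012), was at 2.97, 4.90 and 4.61 in Solvent and 30.7, 36.3 and 39.8 in scMSC, a log2 change of 3.09 ± 0.35 (adjusted p = 0.000334). Camp, the cathelicidin gene on the same chromosome (109847379 to 109849617), was at 1.35, 1.90 and 1.36 in Solvent and 9.38, 9.14 and 13.3 in scMSC, a log2 change of 2.77 ± 0.38 (adjusted p = 0.00136). These 3 genes encode cargo of the secondary, or specific, granules. Positions are those of the deposited table, whose coordinates overlap those of RefSeq GRCm38.p6 for 4316 of 4316 tested genes matched by symbol, although the submitters' processing notes name the build mm8.

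Other genes of maturing neutrophils were higher by smaller factors. Lcn2, the siderophore-binding protein lipocalin 2, was at 1.42, 1.70 and 1.56 FPKM in Solvent and 5.87, 6.47 and 8.25 in scMSC, a log2 change of 2.12 ± 0.32 (adjusted p = 0.00378). Mmp8, the neutrophil collagenase, was at 2.10, 1.6 and 1.45 in Solvent and 6.08, 6.08 and 7.52 in scMSC (log2 change 1.92, adjusted p = 0.0337). Ly6g, the surface antigen used to mark mouse neutrophils, was at 0.634, 0.909 and 0.497 in Solvent and 2.63, 2.94 and 2.19 in scMSC (log2 change 1.91, adjusted p = 0.0237). Il1r2 encodes the decoy receptor that captures interleukin 1 without signalling. Its FPKM was 0.472, 0.539 and 0.382 in Solvent and 3.40, 1.91 and 2.08 in scMSC, a log2 change of 2.37 ± 0.48 (adjusted p = 0.0261). Ly6g and Il1r2 passed the FPKM filter through scMSC libraries alone, so their separation from Solvent was fixed by the filter, and reads of Ly6g could be shared with other Ly6 genes.

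The same genes were far higher in the DNCB libraries, which share the Solvent libraries as their control. Ltf was at 85.0, 122 and 67.9 FPKM in DNCB and Ngp at 403, 602 and 350. The DNCB minus Solvent log2 changes were 6.5 for Ltf, 6.76 for Ngp, 5.92 for Camp, 5.92 for Lcn2, 5.72 for Mmp8, 6.26 for Ly6g and 5.02 for Il1r2. Between scMSC and DNCB, the log2 change was -3.28 for Ltf (95% interval -4.10 to -2.46), -3.68 for Ngp and -4.36 for Ly6g, with the smallest difference of these 7 genes at Il1r2 (-2.64, adjusted p = 0.000936). The scMSC libraries thus lay between the other groups for each of these 7 genes, well below DNCB and above Solvent.

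**Figure D3:**
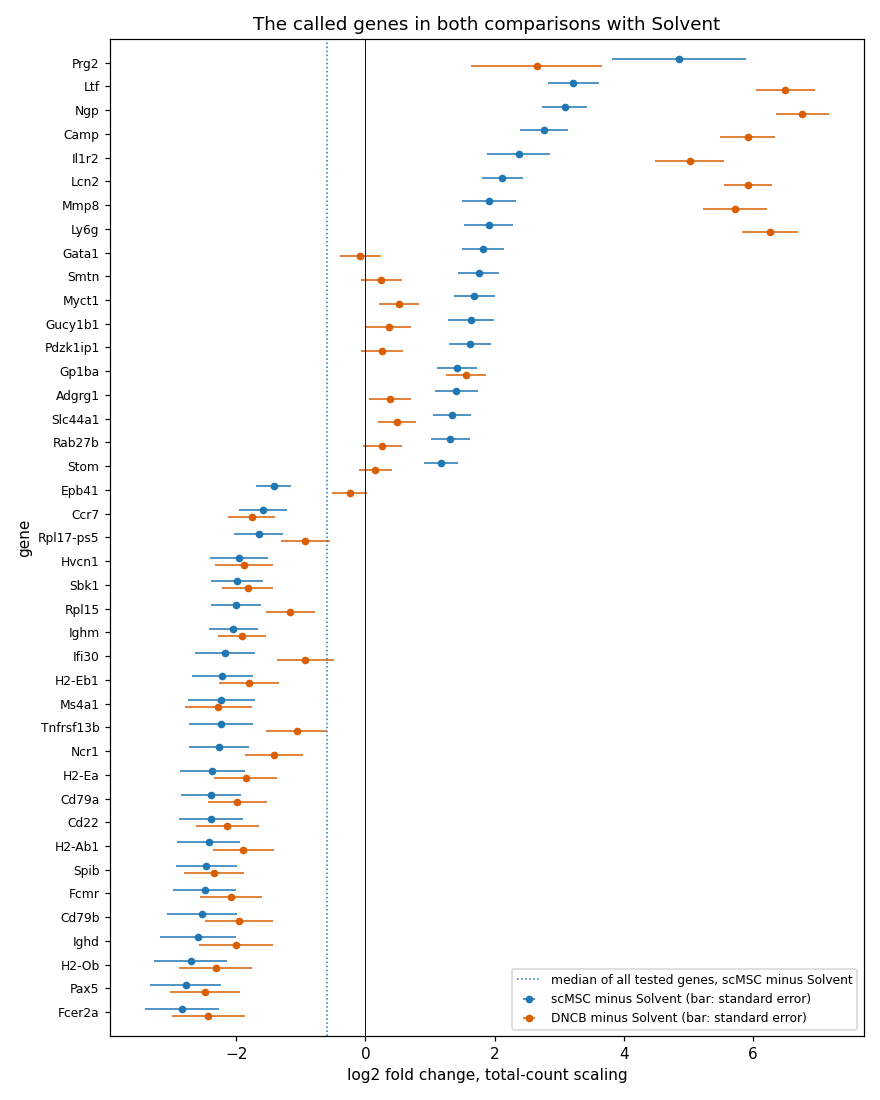
Log2 fold change on total-count scaling for 41 of the 42 genes, scMSC minus Solvent in blue and DNCB minus Solvent in orange, with bars of 1 standard error and a dotted line at the median of all tested genes in scMSC minus Solvent (-0.60). Both contrasts use the same 3 Solvent libraries. The neutrophil genes are higher in both, whereas Gata1 lies near 0 in DNCB minus Solvent. The fitted value of Prg2 rests on Solvent libraries at the counting floor.

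Over the list of 24 granule and secreted protein genes, 17 were tested, 5 were called higher (9 in the 6-library fit and 16 with TMM) and none lower, and in 14 of the 17 every scMSC library was above every Solvent library. For 1 of the 14, which passed the filter through scMSC libraries alone, the separation was fixed by the filter. Among all tested genes 0.428% were called higher, 2.36% in the 6-library fit and 7.93% with TMM, and 7.27% had every scMSC library above. The 12-library fit without any 1 Solvent or scMSC library called 4 of the 17. The list median was 1.16 (1.66 with TMM), against -0.60 (-0.04) for all tested genes, and 4.71 in DNCB minus Solvent. The summed FPKM of the list was between 99.6 and 238 in Solvent, between 242 and 282 in scMSC and between 2290 and 3624 in DNCB. The list did not move as a block. Mmp9, the gelatinase of the tertiary granules, was at 6.37, 7.24 and 4.41 in Solvent and 9.0, 7.5 and 10.2 in scMSC, with a log2 difference of 0.55 (adjusted p = 0.267), although its DNCB minus Solvent change was 3.92. Lyz2, the lysozyme gene of neutrophils and monocytes, was the most abundant and the lowest in change of the list, with overlapping groups at 160, 92.5 and 51.3 in Solvent and 81.2, 72.8 and 78.8 in scMSC and a log2 difference of -0.39 (0.24 with TMM).

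Members of the list below the FPKM filter were read without a test. Olfm4, which marks a subset of neutrophils, was at 0.342, 0.527 and 0.385 FPKM in Solvent and 1.5, 0.922 and 1.66 in scMSC. The azurophil granule genes made at the earliest stages of the lineage were near 0, with Mpo between 0 and 0.050 in Solvent and between 0.0883 and 0.249 in scMSC, and Elane at 0 in every Solvent library and at most 0.0634 in scMSC. Padi4, the histone-modifying enzyme of mature neutrophils, was between 0.263 and 0.481 in Solvent and between 0.399 and 0.710 in scMSC, against 6.55 to 10.3 in DNCB.

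In the lists of S100a proteins and of neutrophil and myeloid surface receptors no gene was called in the 12-library fit. S100a8, one chain of the alarmin calprotectin, was at 80.5, 92.7 and 41.6 FPKM in Solvent and 153, 99.5 and 143 in scMSC, and S100a9, the other chain, was at 238, 279 and 132 in Solvent and 399, 314 and 375 in scMSC. The groups did not overlap for either gene, but the log2 differences of 0.87 and 0.74 were not called (adjusted p = 0.114 and 0.138), and in DNCB the same genes were 4.84 and 4.39 above Solvent. None of the 8 tested S100a genes was called (5 higher with TMM), with a median of 0.52 (1.08 with TMM). For comparison, 7.93% of all tested genes were higher with TMM and 2.36% in the 6-library fit. Of 26 tested neutrophil and myeloid surface receptors, none was called (4 higher in the 6-library fit and 14 with TMM), with a median of 0.55 (1.14 with TMM) against 3.10 in DNCB. Csf3r, the receptor for granulocyte colony-stimulating factor, was at 27.1, 23.7 and 15.2 in Solvent and 35.2, 35.6 and 38.0 in scMSC (log2 difference 0.71, adjusted p = 0.184), and Ltb4r1, the leukotriene B4 receptor, had the largest difference of that list at 1.33 (adjusted p = 0.0728).

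The stefin A genes encode cathepsin inhibitors of neutrophils that lie in 1 cluster and share sequence, so reads may be split among them. Of the 3 that were tested none was called in the 12-library fit and all 3 were higher with TMM, and their log2 differences were 1.39 for Stfa2, 1.42 for Stfa2l1 and 1.51 for Cstdc5 (adjusted p = 0.071, 0.0765 and 0.0765). Every scMSC library was above every Solvent library for each of them, which for the 1 that passed the filter through scMSC libraries alone was fixed by the filter. Cstdc5, for example, was at 0.923, 1.3 and 0.510 in Solvent, 3.07, 2.08 and 2.88 in scMSC and 63.4, 105 and 81.2 in DNCB. Among all tested genes 7.93% were higher with TMM and 7.27% had every scMSC library above every Solvent library. Il1b, the ligand of the interleukin 1 pathway, overlapped between groups, with 17.3, 13.6 and 9.58 in Solvent and 16.8, 15 and 20.8 in scMSC (log2 difference 0.36, 95% interval -0.43 to 1.16), whereas its decoy receptor Il1r2 was the 1 called gene of 5 tested in the interleukin 1, interleukin 18 and inflammasome list. In the 12-library fit no tested gene of the Ifitm family, the phagocyte NADPH oxidase or the Toll-like receptors and adaptors was called on total counts. With TMM 1 gene of the last list was called higher. In the 6-library fit 1 oxidase gene and 1 gene of the Toll-like list were lower, against 20.3% of all tested genes. The Ifitm median was 0.09 over 4 tested genes (0.72 with TMM) against 3.93 in DNCB, that of the oxidase subunits -0.42 over 6 genes (0.17 with TMM) against 2.04, and that of the Toll-like receptors and adaptors -0.02 over 6 genes (0.57 with TMM) against 2.22.

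Of the gene lists, the B cell list held the most genes called lower in the 12-library fit, whereas in the 6-library fit the ribosomal protein list held more. Fcer2a, the low-affinity IgE receptor CD23 (chromosome 8, 3681737 to 3694175), was at 10.1, 4.21 and 2.53 FPKM in Solvent and 0.362, 0.620 and 1.38 in scMSC. The highest scMSC library was below the lowest Solvent library, and the log2 change was -2.84 ± 0.58 (SE, adjusted p = 0.0254), or 14% of the Solvent mean. Pax5, the transcription factor that commits cells to the B lineage (chromosome 4, 44524757 to 44710487), was at 4.45, 2.11 and 1.22 in Solvent and 0.235, 0.395 and 0.506 in scMSC (log2 change -2.78, adjusted p = 0.0254). Cd79a and Cd79b, the signalling chains of the B cell receptor, were at 55.4, 27.9 and 17.1 and at 39.9, 19.6 and 11.8 in Solvent, and at 6.77, 5.83 and 6.72 and at 4.15, 3.45 and 4.87 in scMSC. Their log2 changes were -2.39 ± 0.46 (adjusted p = 0.0234) and -2.53 ± 0.54 (adjusted p = 0.0326). Within Solvent the order of the libraries was the same for these 4 genes, with replicate 1 highest and replicate 3 lowest.

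Surface and regulatory genes of B cells were lower to a similar extent. Cd22, an inhibitory co-receptor, changed by -2.40 (adjusted p = 0.0269) on the log2 scale, Ms4a1, which encodes CD20, by -2.23 (adjusted p = 0.0473), and Fcmr, the Fc receptor for IgM, by -2.48 (adjusted p = 0.0237). Spib, an Ets-family transcription factor, changed by -2.46 (adjusted p = 0.0234), with 10.1, 5.67 and 3.88 FPKM in Solvent and 1.09, 1.26 and 1.23 in scMSC. Tnfrsf13b, the TACI receptor for the survival factors BAFF and APRIL, was at 4.47, 2.00 and 1.64 in Solvent and 0.549, 0.664 and 0.509 in scMSC (log2 change -2.23, adjusted p = 0.0351). Hvcn1, a voltage-gated proton channel abundant in B cells, changed by -1.96 (adjusted p = 0.0473), and Sbk1, a serine/threonine kinase, by -1.99 (adjusted p = 0.0254).

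Of the 30 B cell genes listed, 22 were tested, 9 of them through Solvent libraries alone, and 9 were called lower (21 in the 6-library fit and 15 with TMM). None was higher in any of these fits. The shares of all tested genes called lower were 0.518%, 20.3% in the 6-library fit and 1.46% with TMM. In 21 of the 22 every scMSC library was below every Solvent library, against 42.9% of all tested genes. For the 9 that passed the filter through Solvent libraries alone, Pax5 and Tnfrsf13b among them, the separation was fixed by the filter. The 1 gene with overlapping groups was Btk, a kinase that myeloid cells also express. It was at 3.68, 1.84 and 1.53 in Solvent and 1.75, 1.28 and 1.37 in scMSC. The list median was -2.11 (-1.5 with TMM). The summed FPKM of the list was between 90.7 and 261 in Solvent and between 29.98 and 41.7 in scMSC. Solvent replicate 1 carried the highest sum, and in the 6-library fit without it 19 of the 22 were still called lower with a median of -1.65. In the 12-library fit, however, none of the 22 was called without Solvent replicate 1 or 2 or scMSC replicate 1 or 2, 1 was called without scMSC replicate 3, and 11 were called without Solvent replicate 3.

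MHC class II genes, on chromosome 17, moved with the B cell list, whose summed level is given above, and the part of B cells in this group was not tested. H2-Ab1, the beta chain of I-A (34257689 to 34269419), was at 21.9, 9.39 and 7.02 FPKM in Solvent and 3.04, 2.01 and 2.11 in scMSC, a log2 change of -2.43 ± 0.49 (adjusted p = 0.0254). H2-Ea and H2-Eb1, the chains of I-E, changed by -2.37 and -2.22 (adjusted p = 0.0303 and 0.0311), with H2-Ea at 78.6, 31.7 and 20.7 in Solvent and 10.9, 5.84 and 8.76 in scMSC. H2-Ob, a chain of the DO chaperone that tempers peptide loading in B cells, changed by -2.70 (adjusted p = 0.0303). Cd74, the invariant chain, was at 150, 74.9 and 40.1 in Solvent and 31.9, 14.2 and 24.5 in scMSC, and its log2 difference of -1.92 fell just short of the threshold (adjusted p = 0.0526), as did that of H2-Aa, the alpha chain of I-A, at -2.14 (adjusted p = 0.0526). Ifi30, the lysosomal thiol reductase that prepares antigens for class II loading, was at 33.3, 20.4 and 9.20 in Solvent and 5.30, 3.71 and 5.04 in scMSC (log2 change -2.17, adjusted p = 0.0311).

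H2-Ea and Ifi30 are not members of the class II presentation list. All 8 tested genes of that list had every scMSC library below every Solvent library, which for the 3 that passed the filter through Solvent libraries alone was fixed by the filter. In all, 3 of 8 were called lower, and 8 were lower in the 6-library fit and 7 with TMM. The shares of all tested genes were 0.518%, 20.3% and 1.46%, and 42.9% had every scMSC library below. The list median was -2.16 (-1.53 with TMM), and -1.51 in the 6-library fit without Solvent replicate 1, in which 7 were called. In the 12-library fit none of the 8 was called without Solvent replicate 1 or 2 or without any 1 scMSC library. In contrast to the neutrophil genes, the B cell and class II genes were at similar levels in scMSC and DNCB. The DNCB minus Solvent log2 change was -2.43 for Fcer2a, -2.48 for Pax5, -1.98 for Cd79a, -1.89 for H2-Ab1 and -1.85 for H2-Ea. Between scMSC and DNCB the log2 difference was -0.41 for Fcer2a (95% interval -1.56 to 0.73), -0.41 for Cd79a (-1.33 to 0.52), -0.54 for H2-Ab1 (-1.51 to 0.44) and 0.05 for Ms4a1 (-1.0 to 1.09). All 4 intervals include 0 and are more than 1 log2 unit wide, so equality of scMSC and DNCB was not shown. Ifi30 and Tnfrsf13b had the largest differences of this kind, -1.24 (adjusted p = 0.0562) and -1.17 (adjusted p = 0.0882), with lower values in scMSC.

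Immunoglobulin genes split by isotype. Ighm and Ighd, the mu and delta heavy chains of naive B cells on chromosome 12, were lower. Ighm was at 84.9, 58.0 and 33.2 FPKM in Solvent and 16.4, 10.6 and 15.9 in scMSC (log2 change -2.04 ± 0.37, adjusted p = 0.0234), and Ighd at 42.7, 14.5 and 9.74 in Solvent and 2.86, 2.59 and 5.75 in scMSC (log2 change -2.59 ± 0.59, adjusted p = 0.0422). The lambda constant gene Iglc2, whose reads may be shared with near-identical copies, showed a log2 difference of -2.0 (adjusted p = 0.071). By contrast Igha, the IgA heavy chain, overlapped between groups at 32.4, 46.4 and 18.8 in Solvent and 53.5, 27.4 and 20.03 in scMSC (log2 difference 0.04, 95% interval -0.88 to 0.95), and Jchain, which joins secreted IgA and IgM, did so with a difference of 0.08 (-0.90 to 1.06). Both had been lower in DNCB than in Solvent, by -2.01 and -1.71 on the log2 scale, and scMSC was above DNCB by 2.05 (adjusted p = 0.00357) and 1.79 (adjusted p = 0.0118). Ighg1, the IgG1 heavy chain, was at 0.712, 1.79 and 0.774 in Solvent and 4.09, 3.17 and 3.34 in scMSC, a log2 difference of 1.68 that was not called in the 12-library fit (adjusted p = 0.0765) and was called in the 6-library fit (adjusted p = 0.000578) and with TMM (adjusted p = 0.00896).

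The kappa and heavy variable segments were near the background of all genes. None of 59 tested kappa and none of 23 tested heavy variable genes was called in the 12-library fit, and their medians were -0.58 and -0.49, against -2.15 and -2.37 in DNCB minus Solvent. In the 6-library fit 6 kappa genes were lower and 1 heavy variable gene was higher, while 20.3% of all tested genes were lower and 2.36% higher. The 3 tested lambda variable genes lay below the median of all tested genes, with a median of -1.29 (-0.70 with TMM). None of the 3 was called in the 12-library fit and 1 was lower in the 6-library fit. The plasma cell list had no called gene among 5 tested and a median of -0.08. Thus the mu and delta chains and the B cell list were lower in scMSC, whereas no test separated IgA, the J chain or the plasma cell list from Solvent.

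T cell and natural killer cell genes had lower values in scMSC, but few were called. Ccr7, the receptor that guides naive T cells to lymph nodes, was the called T cell gene, at 24, 16.2 and 12.3 FPKM in Solvent and 6.29, 4.70 and 6.63 in scMSC (log2 change -1.58 ± 0.37, adjusted p = 0.0473). B cells express it too. Trbc2, a T cell receptor beta constant gene, was at 66.9, 38.1 and 38.2 in Solvent and 23.2, 15.3 and 27.6 in scMSC (log2 difference -1.12, adjusted p = 0.0803). Of 28 tested T cell genes, 1 was called lower (11 in the 6-library fit, and 1 with TMM), 24 had every scMSC library below every Solvent library, and the median was -0.95 (-0.39 with TMM), against -1.52 in DNCB. For 1 of the 24, which passed the filter through Solvent libraries alone, the separation was fixed by the filter. Over all tested genes 20.3% were lower in the 6-library fit, and 42.9% had every scMSC library below every Solvent library. In the 6-library fit without Solvent replicate 1, 1 T cell gene was called.

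Ncr1, which encodes the natural killer receptor NKp46, was at 3.72, 3.56 and 2.86 FPKM in Solvent and 0.835, 0.541 and 0.735 in scMSC, a log2 change of -2.26 ± 0.47 (adjusted p = 0.0265). It passed the filter through Solvent libraries alone. Gzma, a granzyme of cytotoxic granules, was at 19.7, 21.4 and 17.9 in Solvent and 9.61, 2.66 and 4.65 in scMSC (log2 difference -1.81, adjusted p = 0.071), and Prf1, the pore-forming protein perforin, differed by -1.38 (adjusted p = 0.0918). Of 9 tested genes of the natural killer and cytotoxic list, 1 was called lower (8 in the 6-library fit and 2 with TMM), 8 had every scMSC library below every Solvent library, and the median was -1.41, against -1.26 in DNCB. Over all tested genes the shares were 20.3% lower in the 6-library fit and 42.9% with every scMSC library below. The summed FPKM of the list was between 61.3 and 77.5 in Solvent and between 18 and 38.7 in scMSC, so for this list Solvent replicate 1 was not apart from the others.

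**Figure D4:**
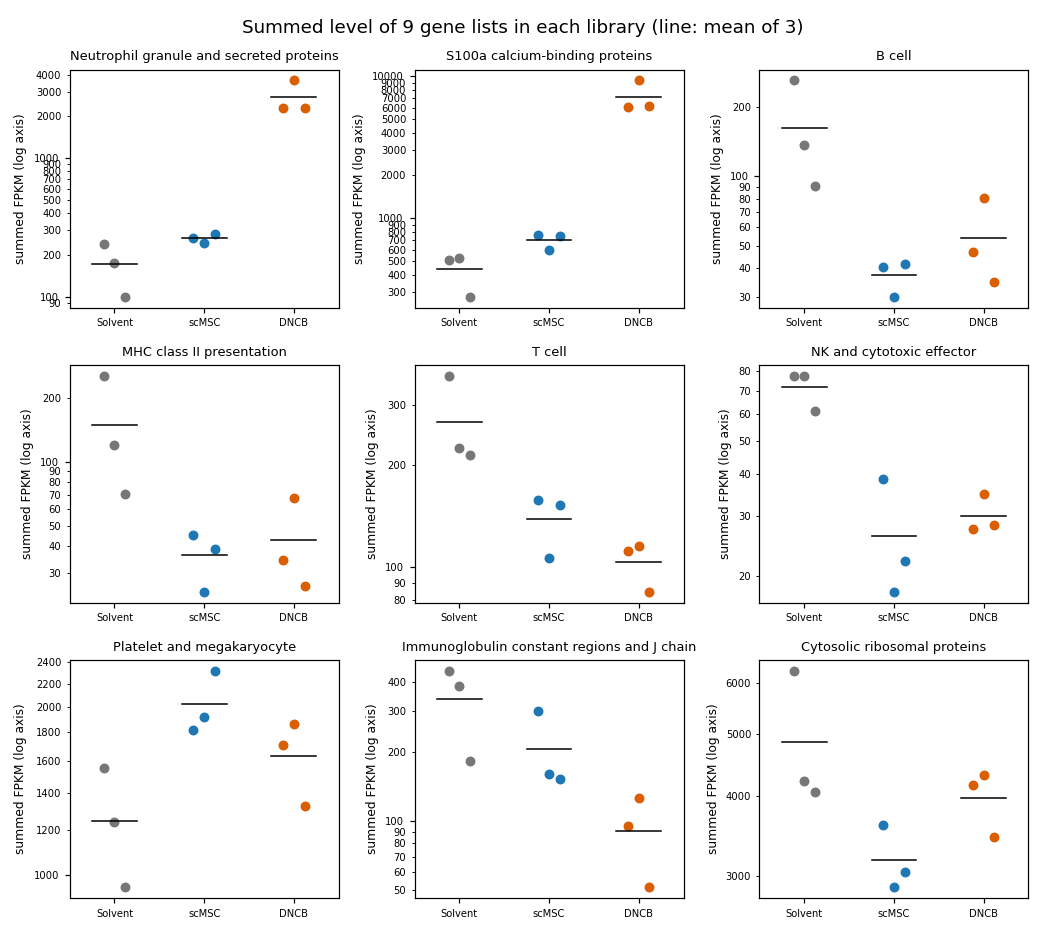
Summed FPKM of 9 gene lists in each library (log axes that do not start at 0), 1 point per library and a line at the mean of 3, for Solvent, scMSC and DNCB. The B cell sum is 29.98 to 41.7 in scMSC and 90.7 to 261 in Solvent, and the platelet sum is 1817 to 2318 in scMSC and 949 to 1554 in Solvent.

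A further set of genes was higher in scMSC and close to Solvent in DNCB. Gata1, the transcription factor of the erythroid and megakaryocyte lineages (chromosome X, 7959260 to 7978071), was at 3.11, 2.29 and 1.5 FPKM in Solvent, 7.06, 8.24 and 9.31 in scMSC and 2.15, 2.39 and 1.95 in DNCB. Every scMSC library was above every Solvent and DNCB library, and the log2 change was 1.82 ± 0.33 against Solvent (adjusted p = 0.0234) and 1.91 against DNCB (95% interval 1.22 to 2.59, adjusted p = 0.000659), while DNCB and Solvent differed by -0.08. Smtn, an actin-binding protein of contractile cells, was at 1.15, 1.29 and 0.870 in Solvent, 2.99, 3.94 and 4.36 in scMSC and 1.51, 1.44 and 0.963 in DNCB (scMSC minus Solvent 1.75, adjusted p = 0.0234). Gucy1b1, the beta subunit of the nitric oxide receptor soluble guanylate cyclase that restrains platelet activation, was at 1.57, 1.31 and 1.25 in Solvent and 3.24, 4.64 and 5.03 in scMSC (log2 change 1.63, adjusted p = 0.0337).

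Membrane and transport genes completed this set. Stom, the membrane protein stomatin of red cells and platelets, was at 14.6, 10.4 and 9.35 FPKM in Solvent and 23.9, 27.2 and 26.7 in scMSC (log2 change 1.17 ± 0.26, adjusted p = 0.0368). Pdzk1ip1, a small membrane protein, changed by 1.62 (adjusted p = 0.0254), Myct1 by 1.68 (adjusted p = 0.0234), the choline transporter gene Slc44a1 by 1.34 (adjusted p = 0.0351), the adhesion receptor gene Adgrg1 by 1.41 (adjusted p = 0.0489), and Rab27b, a small GTPase of platelet granule secretion, by 1.32 (adjusted p = 0.0473). The DNCB minus Solvent changes of these genes were 0.15 for Stom, 0.25 for Pdzk1ip1, 0.52 for Myct1, 0.49 for Slc44a1, 0.39 for Adgrg1 and 0.26 for Rab27b, none of them called. Against DNCB, scMSC was higher by 1.01 for Stom (adjusted p = 0.00873), 1.16 for Myct1 (adjusted p = 0.0118) and 1.36 for Pdzk1ip1 (adjusted p = 0.00597). The direction of each of these changes was the same with TMM, where they were larger.

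Some other regulators of the same lineages had higher values in scMSC without passing the threshold. Gfi1b, a repressor needed for erythroid and megakaryocyte development (chromosome 2, 28609450 to 28621982), was at 1.04, 1.33 and 0.747 FPKM in Solvent and 2.89, 3.44 and 4.04 in scMSC (log2 difference 1.70, adjusted p = 0.071), and was at 0.585, 1.18 and 0.292 in DNCB. Tal1, a partner of Gata1, differed by 1.18 (adjusted p = 0.0798), and Nfe2, a factor for platelet production that neutrophils also express, by 1.46 (adjusted p = 0.0808). With Gata1 these were the 4 genes of 13 tested in the erythroid transcription factor list that were called higher in the 6-library fit. Of the 13, 6 had a log2 difference above 0, and the median was -0.27 (0.29 with TMM). Every scMSC library was above every Solvent library for 4 of them (30.8%) and below for 3 (23.1%). The shares of all tested genes were 7.27% above, 42.9% below and 2.36% called higher in the 6-library fit.

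Platelet and megakaryocyte genes had higher values in scMSC, with 1 call. Gp1ba, a chain of the platelet receptor for von Willebrand factor, was at 3.13, 2.31 and 1.81 FPKM in Solvent and 5.24, 6.70 and 7.54 in scMSC (log2 change 1.41 ± 0.31, adjusted p = 0.0351). It was also higher in DNCB, at 6.38, 8.56 and 6.41 (DNCB minus Solvent 1.56, adjusted p = 0.00181), and so differed from the Gata1 set. Thbs1, the alpha granule protein thrombospondin 1, had the largest difference of the list, 1.45 (adjusted p = 0.0509), and Nrgn, the most abundant, was at 334, 268 and 204 in Solvent and 350, 377 and 482 in scMSC (log2 difference 0.57, adjusted p = 0.101). Of 31 tested genes, 1 was called higher (7 in the 6-library fit and 27 with TMM), 24 had every scMSC library above every Solvent library, and all 31 had a log2 difference above 0. For 3 of them, which passed the filter through scMSC libraries alone, this was fixed by the filter. Of all tested genes, 0.428% were called higher, 2.36% in the 6-library fit and 7.93% with TMM. Every scMSC library was above every Solvent library for 7.27%, and 914 of 4441 had a log2 difference above 0. None of the 31 was called in the 12-library fit without any 1 Solvent or scMSC library. The median was 0.79 (1.36 with TMM), and 0.70 in DNCB. The summed FPKM was 1554, 1242 and 949 in Solvent, 1817, 1920 and 2318 in scMSC, and between 1327 and 1858 in DNCB.

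In the lists of mature red cell genes 1 gene was called, and Stom, described above, is in none of these lists. None of 4 tested globin genes, 9 haem synthesis genes, 18 red cell antioxidant and cytosolic enzyme genes or 23 reticulocyte clearance genes was called, and their medians were 0.00, -0.16, -0.04 and -0.07. With TMM these medians were 0.49, 0.38, 0.51 and 0.47, so the sign for the haem synthesis, enzyme and clearance lists depends on the scaling. Epb41, which encodes a protein that links spectrin and actin to the red cell membrane, was the called gene, in the membrane list of 17, at 63.2, 35.7 and 53.2 FPKM in Solvent, 20.5, 18.1 and 18.6 in scMSC and 38.0, 39.1 and 51.2 in DNCB. Its log2 change was -1.42 ± 0.27 against Solvent (adjusted p = 0.0234) and -1.18 against DNCB (adjusted p = 0.00488), but neither was called with TMM (-0.87 with adjusted p = 0.172, and -0.65 with adjusted p = 0.271).

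Prg2, the eosinophil major basic protein gene (chromosome 2, 84980461 to 84983632), was called higher on few reads. Its deposited counts were 0, 4 and 4 in Solvent and 87, 63 and 64 in scMSC, where about 4 counts correspond to 1 fragment at low values. The FPKM was 0, 0.0665 and 0.0650 in Solvent and 1.88, 1.19 and 1.25 in scMSC, at least 6.36-fold higher when each Solvent library is set to the floor of 3 fragments, or 12 counts. Prg2 passed the FPKM filter through scMSC libraries alone, so its call is given as a description (adjusted p = 0.0311, edgeR). In DNCB it was at 0.196, 0.594 and 0.103, and scMSC minus DNCB was 2.21 (adjusted p = 0.074). The other eosinophil granule genes did not accompany it, since Prg3 was at 0 in all 6 libraries and Epx was above 0 in 1 of them, at 0.0652 FPKM in scMSC replicate 2. Of 19 eosinophil and basophil genes only 3 were tested. Hdc, the histamine-forming enzyme of basophils and neutrophils, was at 0.999, 1.20 and 1.12 in Solvent and 2.42, 2.43 and 2.58 in scMSC (log2 difference 1.15, adjusted p = 0.0788), and at 14.5, 24.6 and 15.6 in DNCB.

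Broadly expressed families had medians on both sides of that of all tested genes. Of 83 tested cytosolic ribosomal protein genes 1 was called lower (46 in the 6-library fit and 2 with TMM), and the median was -1.02 (-0.47 with TMM). The called gene, Rpl15, was at 20.5, 11.6 and 14.8 FPKM in Solvent and 4.03, 4.73 and 3.05 in scMSC (log2 change -2.0, adjusted p = 0.0234), and the pseudogene Rpl17-ps5, which is outside the list, changed by -1.65 (adjusted p = 0.0473). Rps18, the lowest of the list at 5.17, 4.22 and 3.03 in Solvent and 1.14, 0.762 and 0.784 in scMSC, fell short of the threshold (log2 difference -2.19, adjusted p = 0.0526). Ribosomal protein genes have many processed copies, so counts of both are uncertain. Without Solvent replicate 1, 4 of the 83 were called lower in the 6-library fit. None of 33 tested proteasome genes (18 in the 6-library fit), 23 MHC class I presentation genes (14) or 76 nuclear-encoded respiratory chain genes (19) was called in the 12-library fit, with medians of -1.04, -1.14 and -0.69. The counts in parentheses are of lower genes. Over all tested genes 901 (20.3%) were lower in the 6-library fit, and 216 were lower when Solvent replicate 1 was left out of it. Leaving out scMSC replicate 2 gave 146 lower genes and leaving out scMSC replicate 3 gave 257, so the drop was not particular to Solvent replicate 1. Psmb9, an immunoproteasome subunit that feeds peptides to class I, was the lowest member of the proteasome and class I lists, at 5.95, 2.42 and 2.83 in Solvent and 1.73, 0.911 and 1.08 in scMSC (log2 difference -1.59, adjusted p = 0.0745). Mitochondrial genome transcripts, glycolysis genes and Bcl2 family genes had medians of -0.48, -0.43 and -0.36, above that of all tested genes. Replication-dependent histone genes had a median of 0.54 (1.09 with TMM) over 18 tested genes. None of them was called and 8 were higher with TMM, against 7.93% of all tested genes. H2ac18 had the largest difference of that list, at 27.8, 15.4 and 4.93 in Solvent and 28.2, 36.8 and 39.6 in scMSC (log2 difference 1.11, adjusted p = 0.109).

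Interferon-stimulated and monocyte genes contained no called gene. Of 35 tested interferon-stimulated genes 13 were lower in the 6-library fit, 17 (48.6%) had every scMSC library below every Solvent library, near the 42.9% of all tested genes, and the median was -0.86 (-0.30 with TMM) against -0.10 in DNCB. The extremes of the list ran in opposite directions. Zbp1, a nucleic acid sensor, was at 4.11, 2.06 and 2.19 FPKM in Solvent and 1.44, 0.920 and 0.790 in scMSC, whereas Ifit2, an inhibitor of translation of foreign RNA, was at 3.97, 3.05 and 2.49 in Solvent and 5.44, 6.02 and 6.65 in scMSC (log2 difference 0.92, adjusted p = 0.0918). Of 14 tested monocyte genes 5 were lower in the 6-library fit, and 5 (35.7%) had every scMSC library below every Solvent library. With TMM 2 were higher. The monocyte median was -0.91 (-0.32 with TMM) against 0.87 in DNCB. For both lists, the share of all tested genes lower in the 6-library fit was 20.3%, and 7.93% were higher with TMM. Ctss, the endosomal protease cathepsin S, was at 25.4, 15.9 and 10.8 in Solvent, 8.35, 4.74 and 5.5 in scMSC and 15, 23.4 and 13.6 in DNCB, with log2 differences of -1.5 from Solvent (adjusted p = 0.071) and of -1.5 from DNCB (adjusted p = 0.0131). F13a1, a coagulation factor subunit that monocytes and platelets both make, was the 1 monocyte gene with every scMSC library above every Solvent library, with a log2 difference of 0.85 (adjusted p = 0.0918).

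**Figure D5:**
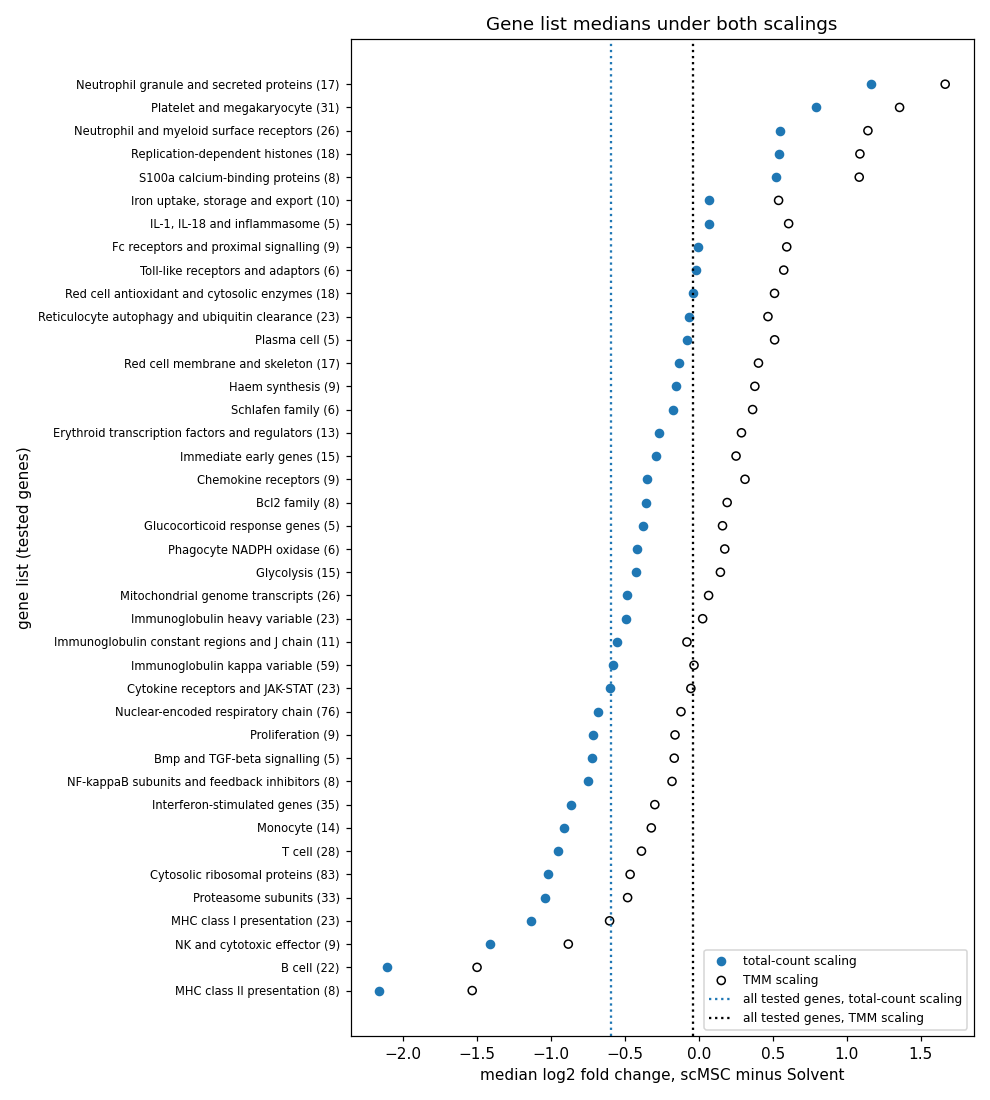
Median log2 fold change, scMSC minus Solvent, for each gene list with at least 5 tested genes (number in parentheses), with total-count scaling as filled points and TMM as open points; dotted lines mark the medians of all tested genes, -0.60 and -0.04. Lists at the top (granule proteins, platelet) and bottom (B cell, MHC class II) lie away from the dotted line under both scalings, and lists in the middle change sign between scalings.

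The pathway terms that the deposited table assigns to genes were ranked by median log2 fold change over those with 10 to 200 tested genes. The lowest were Asthma (-2.14, 11 genes), Intestinal immune network for IgA production (-2.07, 17 genes), Graft-versus-host disease (-1.32, 26 genes), and Allograft rejection and Autoimmune thyroid disease (-1.26, the same 24 genes). Each of these terms holds the class II genes described above, from H2-Ab1 to H2-Ob, and the last 3 also hold class I genes. The highest were ECM-receptor interaction (0.76, 17 genes), Arachidonic acid metabolism (0.65, 10 genes), Complement and coagulation cascades (0.55, 14 genes), Mineral absorption (0.27, 13 genes) and Glutathione metabolism (0.01, 15 genes). The first of them held platelet receptor genes such as Gp1ba, Gp6 and Gp9, and 11 of its 17 genes had every scMSC library above every Solvent library. No gene of the other 4 was called.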

How the data were processed

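Blood RNA was sequenced in 12 libraries, 3 per group, of which the 3 Solvent and 3 scMSC libraries are compared here. Per the labels, the authors used Bowtie 0.12.2, HISAT2 2.0 and StringTie 1.3.0 with build mm8. The deposited table gives, per gene, FPKM and a count column from the authors. The deposited estimated counts are not raw fragments, since low values cluster at multiples of 4. The table also assigns pathway terms to genes. Groups were taken from the sample labels. Genes reaching an FPKM of 1 in 3 or more of these 6 were tested by edgeR 4.0.16 (R 4.3.3) quasi-likelihood on rounded counts, with total counts as library sizes, 4 group means over all 12 libraries, and Benjamini-Hochberg adjustment over 4441 genes. A gene was called at adjusted p under 0.05 and fold over 2. Fold changes without an FPKM label are from this fit, and those in DNCB come from the same fit. Adjusted p-values throughout are edgeR's. The script was tested on simulated counts. Alternatives were TMM, the 6 libraries alone, both together, totals without haemoglobin, limma 3.58.1 on log2(FPKM + 1) and log2(FPKM + 0.1), DESeq2 1.42.0, other filters, no fold limit, a replicate block, and leaving out each library. The members and the 48 gene lists were chosen with earlier results of these data known. Genes named are the called genes and, per list, the extremes and the most abundant gene, or any gene of lists with up to 15 tested. Mmp9, Gp6, Gp9 and the genes below the filter were named after their values were seen. Intervals cover the spread among libraries, and floors cover counting error only. Counts fix relative depth, and the median standard error of a log2 change was 0.40. Of the called genes, 1 is not reported here.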

Additional observations from a re-analysis of the deposited data

How the results depend on the processing

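Each of the 42 called genes kept its direction in every alternative in which it was fitted, but the number of calls did not. Against 19 higher and 23 lower genes (42 in all, median log2 change -0.60), TMM gave 352 and 65 (417, median -0.042), the 6 libraries alone 105 and 901 (1006), TMM in the 6 libraries 371 and 96 (467, median -0.042), totals without haemoglobin 161 and 259 (420, median -0.37), limma on log2(FPKM + 1) 45 and 176 (221), and DESeq2 372 and 91 (463, median -0.037). A mean FPKM of at least 5 gave 75 lower genes (98 in all, median -0.35), and requiring 4 libraries at an FPKM of 1 gave 15 lower genes. The median was -0.82 with no filter. Without a limit on the fold 43 genes were called. Leaving out 1 library gave 4 to 838 calls in the 12-library fit (4 to 95 higher, 0 to 743 lower, medians -0.73 to -0.35), where the high values came without scivMSC replicate 1 (732 calls) or 2 (838), a group that takes part only through the shared spread. Leaving out 1 library from the fit of the 6 libraries alone, an alternative chosen after seeing the data, gave 197 to 1296 calls (31 to 138 higher, 146 to 1229 lower). The haemoglobin difference as a share of FPKM, 0.575 percentage points, ran from -0.11 to 1.03 without 1 library, and as a share of counts the difference was 2.39 (exact permutation p = 0.3). The cause of these changes was not tested. Deviations from the group mean of log2(FPKM + 1) correlated at 0.06, 0.12 and -0.03 between same-numbered scMSC and Solvent libraries. Between libraries of different number the correlations ran from -0.15 to 0.07, and the deviations did not all correlate best with their own number. With 3 libraries per group these values cannot decide whether the replicate numbers pair the libraries. With the replicate number as a block, 38 genes were called (17 higher, 21 lower), 34 of the 42 among them. Igha changed sign with this block (-0.0082), Lyz2 with TMM (0.24, also in the 6 libraries) and DESeq2 (0.24), and Igha, Jchain and Lyz2, none of them called, ran from -0.47 to 0.38 and from -0.39 to 0.40 and from -0.71 to 0.10 without 1 library. The median standard error of a log2 change was 0.40, which limits how small a difference 3 libraries per group can show.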
